A study of Homo sapiens with 8 samples.

Results

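The genes described here are 10 targets of serum response factor (SRF) that build or regulate the contractile actin apparatus: ACTA2, ACTG2, TAGLN, CNN1, CNN2, MYL9, TPM1, TPM2, CALD1 and TGFB1I1. They were chosen by symbol, and all 10 were found among the 19541 gene entries of the authors' deposited table, each with at least 100 reads in total. The RNA came from HAP1, a near-haploid human cell line derived from a chronic myeloid leukaemia and grown as an adherent culture. The SWI/SNF complex remodels chromatin, with SMARCA4 as its ATPase and SMARCB1 as a part of its core. The study compared cells null for SMARCB1, null for SMARCA4 or null for both with wildtype cells.

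There were 4 groups of 2 libraries. The SMARCB1 null group held cells made with CRISPR guide 1 and cells made with guide 2, both at passage 12, and the SMARCA4 null group was made in the same way with 2 guides for that gene, also at passage 12. The labels call the libraries of each single null biological replicates and do not state whether each is 1 clone. The double null group was 1 line, made with SMARCB1 guide 1 and SMARCA4 guide 2, at passages 15 and 18. Wildtype cells were taken at passages 9 and 12. Within the double null and within wildtype, the spread behind every p-value is that between passages of a line, which may be technical. The later passages of the double null and the loss of both genes cannot be told apart.

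SRF is a transcription factor that binds the CArG box, a short element with a core of A and T between CC and GG. Its partners include the MRTF proteins (MKL1 and MKL2), which enter the nucleus when monomeric actin is used up, and myocardin (MYOCD), which drives the smooth muscle programme. Through the MRTFs, the state of the actin cytoskeleton sets the output of many genes that encode actin and its binding proteins. SMARCA4 is known from smooth muscle studies as a cofactor of this transcription.

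Some of the promoters that carry a CArG box or a near match are shown because this element is what ties the genes to SRF. The CArG box was searched as CC, 6 bases of A or T and GG on both strands, in windows from 250 bases before to 50 bases after each RefSeq start (GRCh38.p14), and 8 of the 10 genes had an entry. An exact box lay in the window of 3 of these 8 genes (ACTG2, CNN2 and TGFB1I1), against 1.60% of 27305 genes with an entry. With 1 of the 6 core bases allowed to differ, ACTA2 and CALD1 were added, giving 5 of 8 genes against 9.88% of all. No match was found in the windows of CNN1, TPM1 and TPM2, which says nothing of SRF outside them. The 150 bases before the start are printed in the direction of the gene, with exact or near CArG matches in capitals, for ACTA2 at chr10:88952774-88952923 (minus strand), ACTG2 at chr2:73892858-73893007 (plus strand), CNN2 at chr19:1026458-1026607 (plus strand) and TGFB1I1 at chr16:31473055-31473204 (plus strand).
ACTA2: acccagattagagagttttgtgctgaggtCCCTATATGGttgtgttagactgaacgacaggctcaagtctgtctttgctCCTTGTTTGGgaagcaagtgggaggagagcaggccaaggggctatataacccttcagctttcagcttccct
ACTG2: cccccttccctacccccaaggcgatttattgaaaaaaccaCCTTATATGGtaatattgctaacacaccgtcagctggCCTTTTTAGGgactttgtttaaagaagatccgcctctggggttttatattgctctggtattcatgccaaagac
CNN2: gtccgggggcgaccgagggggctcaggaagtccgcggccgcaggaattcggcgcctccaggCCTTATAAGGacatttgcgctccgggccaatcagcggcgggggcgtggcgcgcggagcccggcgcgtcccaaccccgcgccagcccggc
TGFB1I1: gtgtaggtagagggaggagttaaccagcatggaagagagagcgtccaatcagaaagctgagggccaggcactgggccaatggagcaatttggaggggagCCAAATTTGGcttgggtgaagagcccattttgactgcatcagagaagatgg
The ACTG2 window held 2 exact boxes, at -110 to -101 and at -73 to -64 from the start, where 0.0313% of 35116 windows held at least 2. The capitals in the ACTA2 stretch, at -121 to -112 and at -71 to -62, are near matches, each with 1 core base that is neither A nor T. The exact boxes of CNN2 and TGFB1I1 lay at -89 to -80 and at -51 to -42. Genes with several starts are printed at a start with a match. Other windows of TGFB1I1 held only a near match, and another window of ACTA2 held none. A match describes these letters and does not show that SRF was bound in HAP1 cells.

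The authors' deposited table gives, for each null group, a ratio to wildtype and an adjusted p-value (FDR) per gene, but no value per library. A gene was called when its FDR was under 0.05. From the total reads of a gene and its 3 ratios, the level of each group was worked out in depth-corrected reads per library, that is, reads scaled to libraries of equal depth. How the reads of a group fell between its libraries sets the only slack in these implied levels, and all 4 levels of a gene move up or down together within it. For ACTA2 the slack ran, for example, from 4179 to 4731 in the SMARCB1 null and from 296 to 335 in wildtype. Reads of single libraries could be recovered for CNN1 and for no other of the 10 genes, so whether the libraries of the groups overlap is known for CNN1 alone. Levels are compared between groups and not between genes, since they are not per length.

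Across all libraries 631 M reads were counted, with relative depths of 67.9 to 103 M reads per library. SMARCB1 stood at a ratio of 0.109 in the SMARCB1 null and 0.182 in the double null, and SMARCA4 at 0.0918 in SMARCA4 null cells and 0.152 in the double null, per the authors' deposited table. Among 3571 genes with recovered reads, the deeper double null library exceeded every other library over 4 times for 400 genes and the deeper SMARCB1 null library for 35, against 0 to 7 for the others. For the 9 genes without recovered reads, results without these libraries could not be computed. In bulk RNA, fewer cells that express a gene and less RNA per cell cannot be told apart.

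The contractile targets did not move as a block. In the SMARCB1 null, 8 of the 10 genes were called, 4 higher (ACTA2, TPM2, CNN1 and TAGLN) and 4 lower (ACTG2, CALD1, TGFB1I1 and TPM1), per the authors' deposited table, where 13.6% of all genes were called, 7.86% higher and 5.76% lower. In the SMARCA4 null 3 of the 10 were called, CNN1 and TAGLN higher and ACTG2 lower, against 11.9% of all genes (7.39% higher and 4.49% lower), per the authors' deposited table. Calls in the double null numbered 7, with CNN1, ACTA2 and TAGLN higher and ACTG2, TGFB1I1, CALD1 and TPM1 lower, against 18% of all genes (12% higher and 5.97% lower), per the authors' deposited table. Calls of at least 2-fold numbered 7, 3 and 5 of the 10 genes, beside 5.86%, 4.74% and 8.47% of all genes, per the authors' deposited table. The median log2 ratio of the 10 genes was 0.35 in the SMARCB1 null, 0.18 in SMARCA4 null cells and 0.03 in the double null, beside 0.06, 0.03 and 0.17 over the 19541 entries of the authors' deposited table. ACTG2, TAGLN and CNN1 were called in all 3 comparisons, 4 genes in 2, TPM2 in 1, and CNN2 and MYL9 in none. The 3 comparisons share the wildtype libraries, so calls that recur across them are not independent.

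**Figure D1:**
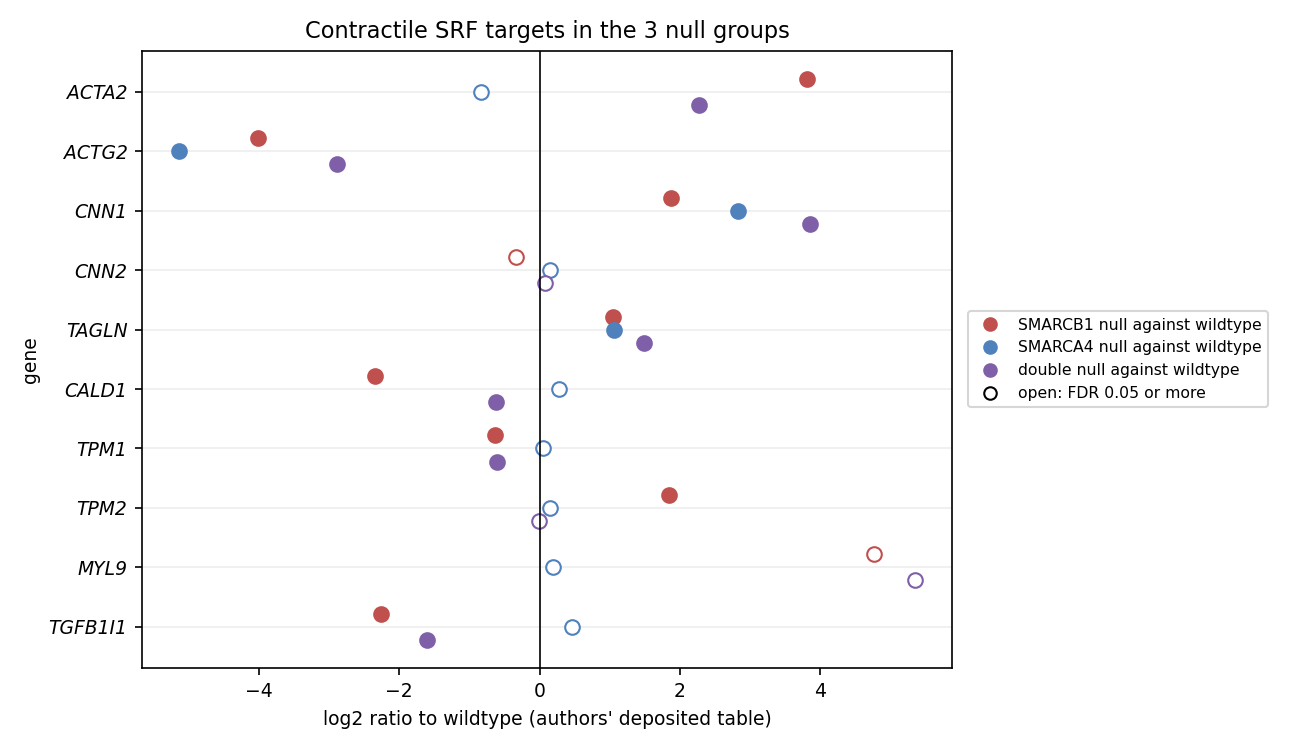
Log2 ratio of each null group to wildtype (x axis) for the 10 contractile SRF targets (y axis), from the authors' deposited table. Filled points have an FDR under 0.05 and open points do not. ACTA2 lies at 3.82 in the SMARCB1 null and 2.28 in the double null and at -0.84 in SMARCA4 null cells, while the 3 points of ACTG2 lie between -5.14 and -2.89 and those of TAGLN between 1.04 and 1.50.

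Of the actins, ACTA2 encodes smooth muscle alpha-actin, the marker of differentiated smooth muscle and of myofibroblasts. Its implied level was 4438 depth-corrected reads per library in the SMARCB1 null, 176 in SMARCA4 null cells and 1524 in the double null, against 314 in wildtype. ACTA2 was thus high in both groups that lack SMARCB1 and lowest in the group that lacks SMARCA4 alone. It rose 14.1-fold in the SMARCB1 null (log2 3.82, FDR 7.41e-38) and 4.85-fold in the double null (log2 2.28, FDR 1.2e-12), per the authors' deposited table. In the SMARCA4 null its ratio was 0.56 (log2 -0.84, FDR 0.206), per the authors' deposited table. A second, shorter table of the authors, which holds ACTA2, TAGLN and TGFB1I1 of the 10 genes, gives the same log2 value of -0.84 with an FDR of 7.54e-05, so the call in the SMARCA4 null differs between the tables. The quotient of the ratios was 25.2 for the SMARCB1 null over the SMARCA4 null, 8.65 for the double null over the SMARCA4 null and 0.343 for the double null over the SMARCB1 null. These quotients have no test, since the authors' deposited table holds no comparison between nulls.

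ACTG2, the gamma-actin of enteric smooth muscle and the gene with 2 exact CArG boxes above, was lower in every null group. ACTG2 had an implied level of 104 depth-corrected reads per library in the SMARCB1 null, 47.7 in SMARCA4 null cells and 228 in the double null, against 1686 in wildtype. The wildtype level stood above all 3 null levels. ACTG2 fell, with log2 ratios of -4.02 (FDR 0.00365), -5.14 (FDR 0.0155) and -2.89 (FDR 0.00202) in the SMARCB1 null, the SMARCA4 null and the double null, per the authors' deposited table. The level in the double null was above that in both single nulls, at a quotient of 2.19 over the SMARCB1 null and 4.78 over the SMARCA4 null, differences that have no test. The actins are near-identical as proteins, and how any reads shared among ACTA2, ACTG2 and their paralogues were assigned is not known.

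The calponin and transgelin family binds actin filaments. CNN1, calponin 1, is an inhibitor of actomyosin ATPase and a late marker of smooth muscle. Recovered CNN1 reads were 8 and 16 in the SMARCB1 null (deeper library, then shallower), 19 and 34 in SMARCA4 null cells, 69 and 54 in the double null, and 3 and 4 in wildtype. Corrected for depth these were 8.98 and 18.6 in the SMARCB1 null, 16.2 and 37.5 in SMARCA4 null cells, 52.8 and 56.2 in the double null, and 2.89 and 4.62 in wildtype. Every null library lay above both wildtype libraries, both double null libraries lay above all the others, and the SMARCB1 null and SMARCA4 null libraries overlapped. Which library came from which guide or passage is not known. CNN1 rose by a log2 ratio of 1.87 (FDR 0.0422) in the SMARCB1 null, 2.83 (FDR 0.00139) in SMARCA4 null cells and 3.86 (FDR 5.98e-06) in the double null, per the authors' deposited table.

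With edgeR's quasi-likelihood test on the recovered reads, CNN1 rose by log2 2.80 (SE 0.64, adjusted p = 0.0306) in SMARCA4 null cells and by 3.83 (SE 0.64, adjusted p = 0.00496) in double null cells. In the SMARCB1 null the edgeR log2 change was 1.86 (SE 0.67, adjusted p = 0.116), which did not pass. The same test called 8% of 1624 recovered genes in the SMARCA4 null, 21.6% in the double null and 10.3% in the SMARCB1 null. Between null groups, the log2 difference of CNN1 was 1.98 (SE 0.55, edgeR adjusted p = 0.118) for the double null over the SMARCB1 null. It was 1.03 (SE 0.52, edgeR adjusted p = 0.228) for the double null over the SMARCA4 null and -0.95 (SE 0.56, edgeR adjusted p = 0.385) for the SMARCB1 null over the SMARCA4 null, and none of these passed. The share of recovered genes called was 0.8%, 11.4% and 7.94% in those contrasts. The SMARCA4 null call was lost without any 1 of its 4 libraries, at log2 changes of 2.09 to 3.29. These fits left 1 library in a group and adjusted over 2362 to 2427 genes in place of 1624. Whether the library or the changed set of genes ended the call was not tested. The double null call was lost without the deeper or the shallower wildtype library, at log2 changes of 3.53 and 4.18, with the set of genes changed in the same way. Without the shallower double null library, the log2 difference of the double null from the SMARCB1 null was 1.93, against 1.98 with all libraries.

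CNN2, calponin 2, is found in many cell types beyond smooth muscle. Its implied level was 9206 depth-corrected reads per library in the SMARCB1 null, 12966 in SMARCA4 null cells and 12272 in the double null, against 11651 in wildtype. Its log2 ratios were -0.34 (FDR 0.138), 0.15 (FDR 0.653) and 0.07 (FDR 0.806) in the SMARCB1 null, the SMARCA4 null and the double null, per the authors' deposited table, and none was called. The median log2 ratio of the 16558 genes with at least 100 reads was 0.12 in the double null, and relative to it the value of CNN2 there was -0.049. Of the 3 genes with an exact CArG box, CNN2 was not called and ACTG2 was lower in all 3 nulls, per the authors' deposited table. The third, TGFB1I1, was lower in the SMARCB1 null and the double null and not called in the SMARCA4 null, per the authors' deposited table. Whether a box goes with the outcome was not tested.

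TAGLN, transgelin or SM22-alpha, crosslinks actin and is an early marker of smooth muscle. The implied level of TAGLN was 208 depth-corrected reads per library in the SMARCB1 null, 211 in SMARCA4 null cells and 285 in the double null, against 101 in wildtype. The null groups stood close to each other and above wildtype. TAGLN rose by log2 1.04 (FDR 0.00955), 1.06 (FDR 0.00843) and 1.50 (FDR 3.72e-05) in the SMARCB1 null, the SMARCA4 null and the double null, per the authors' deposited table. The quotient of the SMARCB1 null over the SMARCA4 null was 0.987. TAGLN2, its paralogue in non-muscle cells, fell in the SMARCB1 null (log2 -1.43, FDR 1.14e-15) and in the double null (log2 -1.43, FDR 1.04e-15), and its log2 ratio was -0.28 (FDR 0.177) in the SMARCA4 null, per the authors' deposited table.

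**Figure D2:**
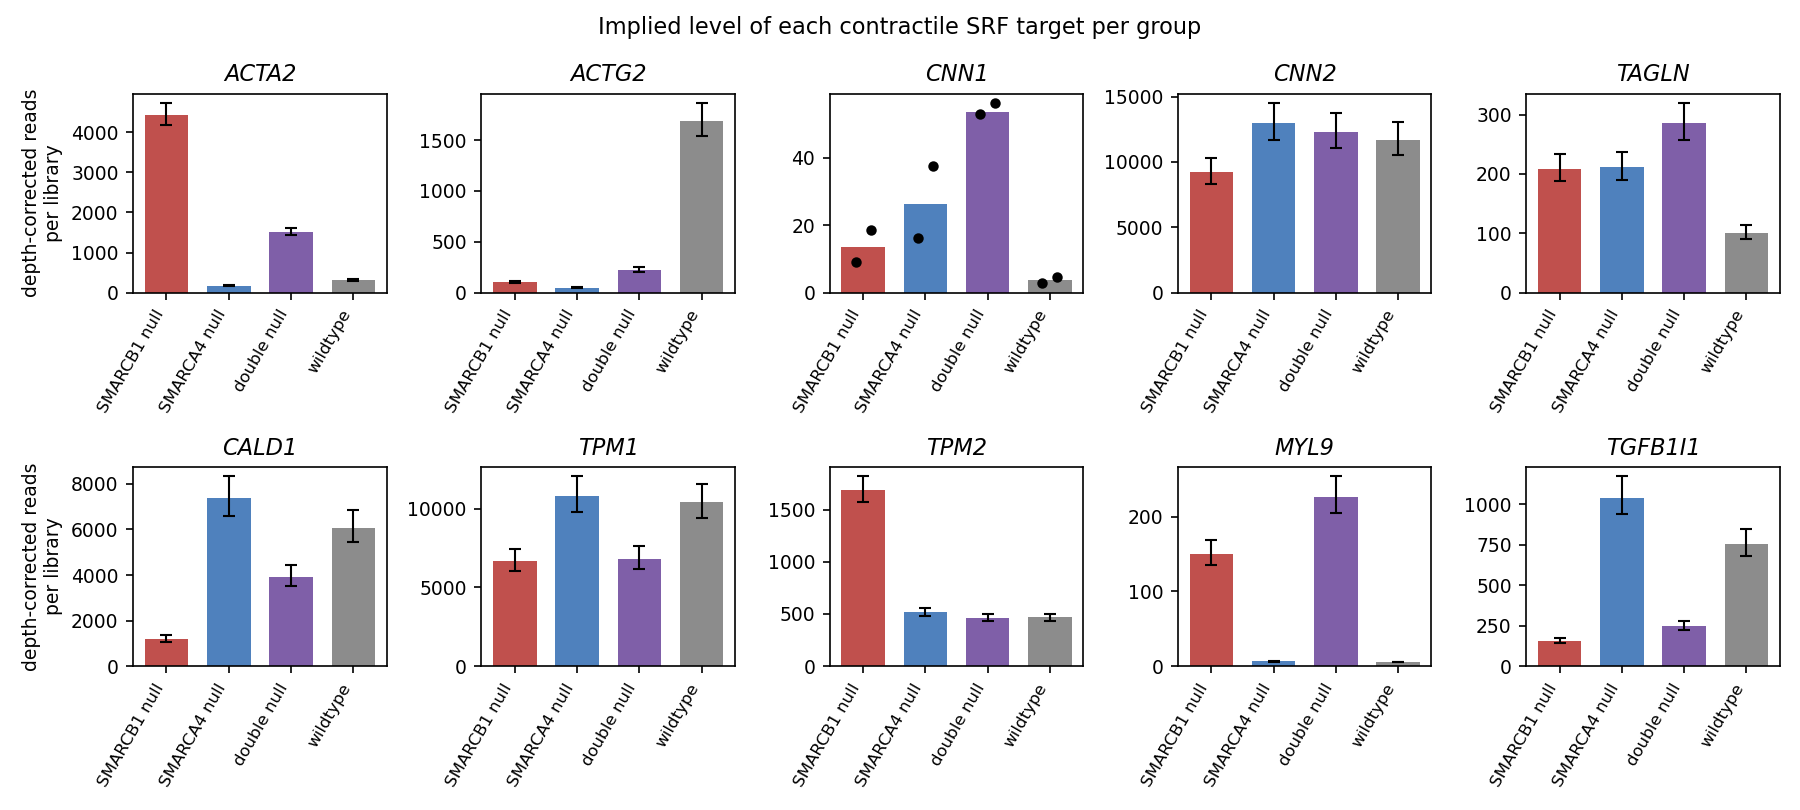
Implied level of each gene in depth-corrected reads per library (y axis, from 0, own scale per gene) in the SMARCB1 null, the SMARCA4 null, the double null and wildtype (x axis). Bars are the implied level, error bars the lowest and highest level the totals and ratios allow (not a spread between replicates), and the points of CNN1 are its 2 libraries per group. ACTA2 and TPM2 are highest in the SMARCB1 null, ACTG2 is highest in wildtype, and CALD1 and TGFB1I1 are lowest in the SMARCB1 null.

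Of the genes that regulate the thin filament, CALD1 encodes caldesmon, which binds actin and tropomyosin and restrains myosin. Its implied level was 1194 depth-corrected reads per library in the SMARCB1 null, 7363 in SMARCA4 null cells and 3930 in the double null, against 6073 in wildtype. The SMARCB1 null stood far below the other groups, with the double null between it and wildtype. CALD1 fell in the SMARCB1 null (log2 -2.35, FDR 8.13e-10) and in the double null (log2 -0.63, FDR 0.0328), with a log2 ratio of 0.28 (FDR 0.476) in the SMARCA4 null, per the authors' deposited table. The quotient of the ratios was 0.162 for the SMARCB1 null over the SMARCA4 null and 3.29 for the double null over the SMARCB1 null, with no test.

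The tropomyosins TPM1 and TPM2 encode coiled-coil proteins that run along the actin filament and differed from each other. TPM1 had an implied level of 6688 depth-corrected reads per library in the SMARCB1 null, 10798 in SMARCA4 null cells and 6818 in the double null, against 10396 in wildtype. It fell in the SMARCB1 null (log2 -0.64, FDR 0.00287) and in the double null (log2 -0.61, FDR 0.00364), with a log2 ratio of 0.05 (FDR 0.947) in the SMARCA4 null, per the authors' deposited table. TPM1 was thus lower in both groups without SMARCB1 and close to wildtype in the SMARCA4 null. TPM2 had an implied level of 1687 depth-corrected reads per library in the SMARCB1 null, 519 in SMARCA4 null cells and 462 in the double null, against 467 in wildtype. TPM2 rose by log2 1.85 (FDR 0.014) in the SMARCB1 null, and its log2 ratios were 0.15 (FDR 0.988) in SMARCA4 null cells and -0.01 (FDR 0.995) in the double null, per the authors' deposited table. The high value of TPM2 was in the SMARCB1 null, and the quotient of the double null over the SMARCB1 null was 0.274, with no test.

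MYL9 encodes the regulatory light chain of smooth muscle myosin, whose phosphorylation starts contraction. Its implied level was 151 depth-corrected reads per library in the SMARCB1 null, 6.34 in SMARCA4 null cells and 227 in the double null, against 5.53 in wildtype. The ratios were 27.2 (FDR 0.829), 1.15 (FDR 1) and 41 (FDR 0.738) in the SMARCB1 null, the SMARCA4 null and the double null, per the authors' deposited table. MYL9 thus had the highest ratio of the 10 genes in the double null and no call in any comparison, and how its reads fell between the libraries is not known. The related light chains MYL12A and MYL12B, of non-muscle myosin, fell in the SMARCB1 null, with log2 ratios of -0.76 (FDR 0.000475) and -0.56 (FDR 0.0011), per the authors' deposited table. In the SMARCA4 null they rose by log2 0.56 (FDR 0.00174) and 0.73 (FDR 5.45e-09), per the authors' deposited table. Double null cells had lower MYL12A (log2 -0.48, FDR 0.0302) and a MYL12B log2 ratio of -0.28 (FDR 0.142), per the authors' deposited table.

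TGFB1I1 encodes Hic-5, a LIM-domain adaptor of focal adhesions that is related to paxillin and induced by TGF-beta. TGFB1I1 had an implied level of 157 depth-corrected reads per library in the SMARCB1 null, 1041 in SMARCA4 null cells and 249 in the double null, against 755 in wildtype. Both groups without SMARCB1 stood low and the SMARCA4 null at or above wildtype. TGFB1I1 fell in the SMARCB1 null (log2 -2.26, FDR 2.19e-08) and in the double null (log2 -1.60, FDR 1.58e-05), with a log2 ratio of 0.46 (FDR 0.32) in the SMARCA4 null, per the authors' deposited table. The quotient was 0.151 for the SMARCB1 null over the SMARCA4 null and 0.239 for the double null over the SMARCA4 null, with no test. Its paralogues PXN, paxillin, and LPXN, leupaxin, were not called in any comparison, with log2 ratios from -0.25 to 0.25, per the authors' deposited table.

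TPM2 and ACTA2 are also expressed in skeletal muscle cells as they form, and skeletal muscle transcripts were unevenly spread over the libraries. Of 5 skeletal markers with recovered reads (MYOD1, MYOG, MYF6, MYBPH and TNNC2), the summed level was 1692 depth-corrected reads in the deeper SMARCB1 null library and 3.48 in the shallower. It was 6.83 and 3.31 in the SMARCA4 null libraries, 68.2 and 8.33 in the double null libraries and 8.67 and 38.1 in the wildtype libraries. TNNC2 alone made up 1389 in the deeper SMARCB1 null library and 34.6 in the shallower wildtype library. All 5 had reads in the deeper SMARCB1 null and the deeper double null library, while in each of the other libraries 2 to 4 of the 5 were at 0. The deeper SMARCB1 null library held 82 reads of MYOG, the myogenic factor that starts fusion, against 2 in the shallower, 6 and 0 in the double null and none in the SMARCA4 null or wildtype libraries. Summed over all 15 measured skeletal markers, the implied level was 17577 depth-corrected reads per library in the SMARCB1 null, 1590.4 in SMARCA4 null cells and 2382 in the double null, against 1226 in wildtype. TNNT1 alone made up 1099 of the sum in SMARCA4 null cells, against 238 in wildtype. The levels of TPM2, ACTA2 and MYL9 in the SMARCB1 null stand beside these values, and the part of skeletal muscle transcripts in them was not tested. Of the 15 markers, NEB rose in the SMARCB1 null (log2 2.58, FDR 0.00215) and TNNT1 in the SMARCA4 null (log2 2.21, FDR 0.0383), and none was called, or had an unadjusted p under 0.05, in double null cells, per the authors' deposited table. Their median log2 ratio was 6.16, -1.86 and 1.35 in the SMARCB1 null, the SMARCA4 null and the double null, per the authors' deposited table, or 4.95, -1.45 and 1.23 with groups under 3 reads over their pair of libraries set at 3. The 1 skeletal marker called in each single null is 6.67% of the 15. Of all genes, 7.86% were called higher in the SMARCB1 null and 7.39% in SMARCA4 null cells.

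The genes around ACTA2 were looked at after its values were seen. In RefSeq, ACTA2 on chromosome 10 overlaps its antisense RNA ACTA2-AS1 and FAS, which encodes a death receptor. ACTA2-AS1 rose in the SMARCB1 null (log2 2.41, FDR 0.000185) and fell in the SMARCA4 null (log2 -2.16, FDR 0.000493), with a log2 ratio of 1.19 (FDR 0.115) in the double null, per the authors' deposited table. FAS rose by log2 2.57 (FDR 6.59e-34), 0.70 (FDR 0.0153) and 1.22 (FDR 2.68e-07) in the SMARCB1 null, the SMARCA4 null and the double null, per the authors' deposited table. FAS-AS1, an antisense RNA of FAS, rose by log2 3.58 (FDR 1.48e-07) in the SMARCB1 null and 2.13 (FDR 0.000423) in the double null, with 0.26 (FDR 0.78) in the SMARCA4 null, per the authors' deposited table. All 4 genes of the locus were thus highest in the SMARCB1 null. The libraries were made with a strand-specific kit, but whether the counting used strand is not given in the sources used here. Reads in bases that ACTA2 shares with its overlapping genes therefore cannot be told apart. How much of their exons is shared was not measured. TAGLN, MYL9, TPM1 and CALD1 also overlap another RefSeq gene. PCSK7, which overlaps TAGLN, was not called in any comparison, with log2 ratios from 0.05 to 0.34, per the authors' deposited table.

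**Figure D3:**
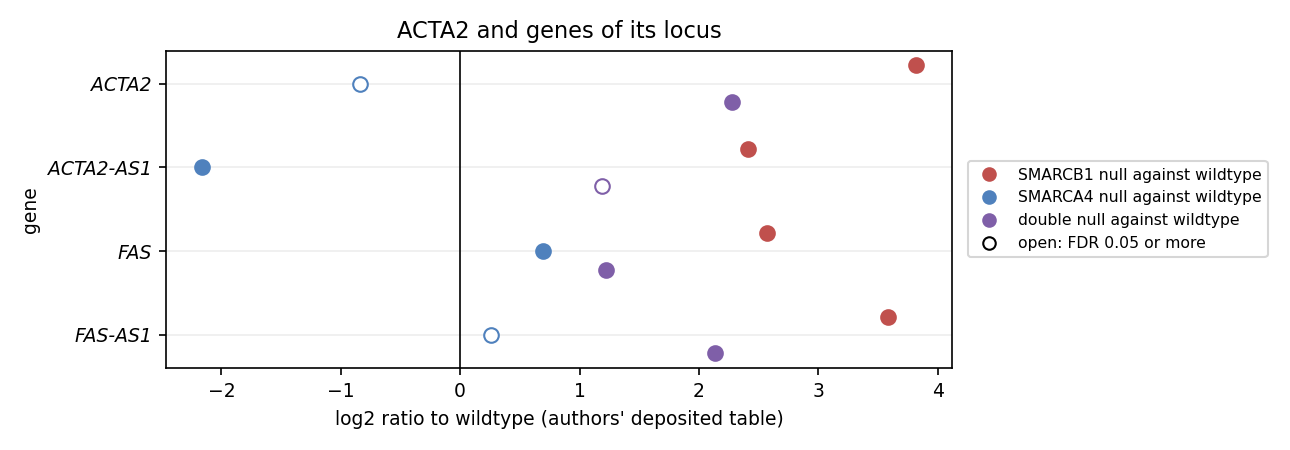
Log2 ratio of each null group to wildtype (x axis) for ACTA2, ACTA2-AS1, FAS and FAS-AS1 (y axis), from the authors' deposited table. Filled points have an FDR under 0.05 and open points do not. In each gene the SMARCB1 null is the highest point, from 2.41 to 3.82, and the double null lies between it and the SMARCA4 null.

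Genes with a pattern like that of ACTA2, ACTG2 or TAGLN were ranked by distance over the 3 log2 ratios, among genes with at least 100 reads that were called in the same comparisons. The closest to ACTA2 of 867 genes were PDGFD, FAS-AS1 and CCND1, at distances of 0.97, 1.13 and 1.16 log2 units. The closest to ACTG2 of 1016 genes were IFITM1, NLGN1 and GRIK2, at 0.26, 0.80 and 0.94. The closest to TAGLN of 1016 genes were DRAM1, MID2 and C2, at 0.07, 0.12 and 0.13. With ratios that share the wildtype libraries, these distances describe the pattern only.

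Of the regulators of the 10 genes, SRF and MKL2 were not called. SRF had log2 ratios of -0.12 (FDR 0.815), 0.21 (FDR 0.583) and -0.01 (FDR 0.987) in the SMARCB1 null, the SMARCA4 null and the double null, per the authors' deposited table. MKL2 had log2 ratios of -0.18 (FDR 0.717), -0.05 (FDR 0.984) and 0.00 (FDR 0.996), per the authors' deposited table. MKL1 fell in the SMARCB1 null (log2 -0.18, FDR 6.8e-05) and in the double null (log2 -0.13, FDR 0.00721), with -0.05 (FDR 0.528) in the SMARCA4 null, per the authors' deposited table. MYOCD, with 151 reads in all, had log2 ratios of 3.95 (FDR 0.494), 3.63 (FDR 0.364) and 1.82 (FDR 0.458), per the authors' deposited table. CSRP1, a LIM protein that bridges SRF and GATA factors in smooth muscle, fell in the SMARCB1 null (log2 -2.38, FDR 0.00231) and in the double null (log2 -2.80, FDR 0.0011), with -0.02 (FDR 1) in the SMARCA4 null, per the authors' deposited table. Of 10 genes for SRF and its cofactors, MKL1 and CSRP1 were the only ones called, none had an unadjusted p under 0.05 in SMARCA4 null cells, and the ternary complex factors ELK1, ELK3 and ELK4 were not called in any comparison of the authors' deposited table. The median log2 ratio of the 10 was -0.10, 0.15 and 0.00 in the SMARCB1 null, the SMARCA4 null and the double null. In the SMARCB1 null and the double null 20% of the 10 were called lower, beside 5.76% and 5.97% of all genes.

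Other SRF targets were counted in 2 lists, cytoskeletal and immediate-early. Of all genes, 7.86% were called higher and 5.76% lower in the SMARCB1 null, and 7.39% and 4.49% in SMARCA4 null cells. In the double null these shares were 12% and 5.97%, per the authors' deposited table. Of 18 further cytoskeletal targets, 1 rose and 4 fell in the SMARCB1 null, 8 rose and 1 fell in SMARCA4 null cells, and 3 rose and 4 fell in the double null, per the authors' deposited table, with medians of -0.06, 0.56 and 0.11. The shares higher and lower were 5.56% and 22.2%, 44.4% and 5.56%, and 16.7% and 22.2%. FLNA, the actin crosslinker filamin A, fell, with log2 ratios of -1.39 (FDR 2.23e-79), -0.57 (FDR 7.01e-18) and -1.30 (FDR 6.49e-72) in the SMARCB1 null, the SMARCA4 null and the double null, per the authors' deposited table. In the SMARCA4 null, FERMT2 (kindlin-2) rose by log2 1.42 (FDR 1.29e-13), ACTG1 (cytoplasmic gamma-actin) by 0.60 (FDR 1.37e-21) and ACTB (beta-actin) by 0.29 (FDR 9.28e-11), per the authors' deposited table. Of 12 immediate-early SRF targets, 2 rose in the SMARCB1 null, 4 in SMARCA4 null cells and 4 in the double null and none fell, with medians of 0.35, 0.79 and 0.65, per the authors' deposited table. The shares higher were 16.7%, 33.3% and 33.3%. EGR3, an immediate-early zinc-finger factor, rose by log2 2.48 (FDR 2.3e-34), 3.01 (FDR 1.89e-49) and 3.23 (FDR 1.6e-57) in the SMARCB1 null, the SMARCA4 null and the double null, per the authors' deposited table. Of 13 paralogues of the 10 genes, 5 fell and none rose in the SMARCB1 null, 5 rose and none fell in SMARCA4 null cells, and 2 rose and 2 fell in the double null, per the authors' deposited table, with medians of -0.14, 0.10 and -0.02. The 5 calls are 38.5% in each single null, and the double null has 15.4% each way. ACTA1 and ACTC1 were not called, at ratios of 99.2 (FDR 0.791) and 40.3 (FDR 0.986) in the SMARCB1 null, per the authors' deposited table. Their implied levels there were 6137 and 1260 depth-corrected reads per library, against 61.8 and 31.3 in wildtype. How these reads fell between the libraries is not known.

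Of 13 other smooth muscle genes, 2 rose and 2 fell in the SMARCB1 null, 1 rose and 1 fell in SMARCA4 null cells, and 3 rose and 2 fell in the double null, per the authors' deposited table, with medians of -0.33, -0.11 and 0.11. These are 15.4% each way in the SMARCB1 null, 7.69% each way in SMARCA4 null cells, and 23.1% higher and 15.4% lower in the double null. All-gene shares higher and lower were 7.86% and 5.76% (SMARCB1 null), 7.39% and 4.49% (SMARCA4 null) and 12% and 5.97% (double null). MYH11, the smooth muscle myosin heavy chain, was not called, with log2 ratios of 0.31 (FDR 0.546), 0.50 (FDR 0.202) and 0.63 (FDR 0.0537) in the SMARCB1 null, the SMARCA4 null and the double null, per the authors' deposited table. SYNPO2, the actin-bundling synaptopodin 2, rose by log2 6.74 (FDR 0.00637) in the SMARCB1 null and 7.20 (FDR 0.00231) in the double null, with 2.68 (FDR 0.571) in the SMARCA4 null, per the authors' deposited table (FDR 3.07e-05 in the shorter table). PPP1R12B, a targeting subunit of myosin phosphatase, rose by log2 1.83 (FDR 4.61e-14), 0.69 (FDR 0.0491) and 0.68 (FDR 0.0406), per the authors' deposited table. LMOD1 fell in all 3 nulls, with log2 ratios of -1.11 (FDR 0.0246), -1.10 (FDR 0.0276) and -1.23 (FDR 0.0143), per the authors' deposited table. MYL6 fell in the SMARCB1 null (log2 -0.51, FDR 0.000559) and HSPB6 in the double null (log2 -1.11, FDR 0.00422), per the authors' deposited table.

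**Figure D4:**
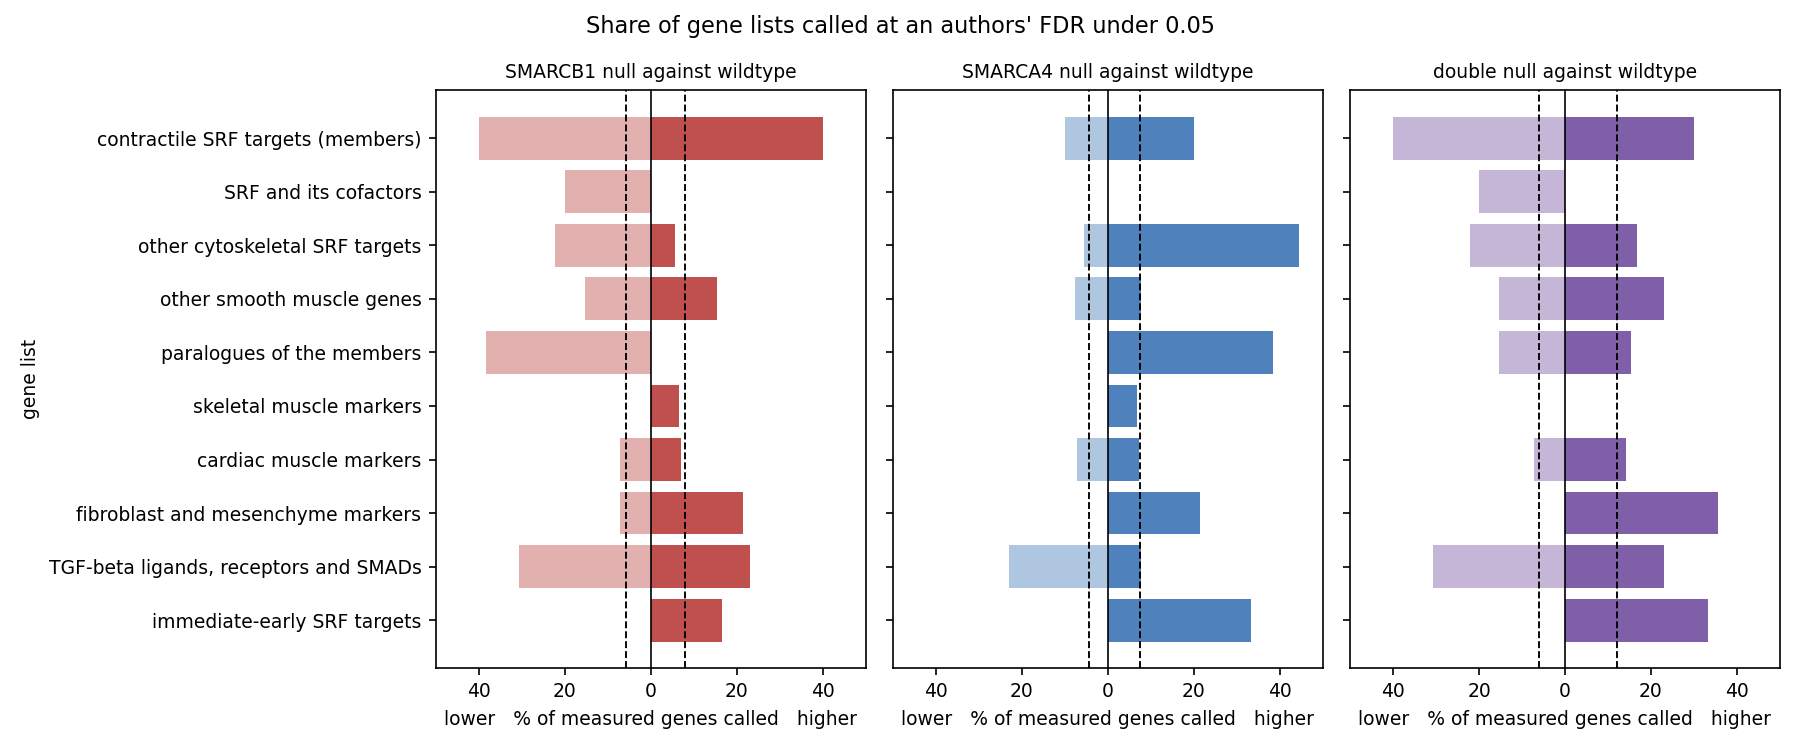
Share of the measured genes of each list shown (y axis) called higher (right, dark) or lower (left, light) at an FDR under 0.05, per the authors' deposited table (x axis, percent), in the SMARCB1 null, the SMARCA4 null and the double null against wildtype. Dashed lines mark the share of all 19541 genes called in each direction. The 10 contractile targets have 40% called each way in the SMARCB1 null.

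Markers of other cells and the signalling upstream were counted as well. Of 14 cardiac muscle markers, 1 rose and 1 fell in each single null and 2 rose and 1 fell in the double null, per the authors' deposited table. These are 7.14% each way in the single nulls and 14.3% and 7.14% in the double null, beside all-gene shares higher and lower of 7.86% and 5.76% (SMARCB1 null), 7.39% and 4.49% (SMARCA4 null) and 12% and 5.97% (double null). The median log2 ratio of the cardiac markers was 2.08, -0.96 and 0.39 in the SMARCB1 null, the SMARCA4 null and the double null, per the authors' deposited table, or 2.09, -0.73 and 0.39 with groups under 3 reads set at 3. Their summed implied level was 4876 depth-corrected reads per library in the SMARCB1 null, 2538 in SMARCA4 null cells and 2748 in the double null, against 5847 in wildtype. TBX5 made up 2011 of the sum in the SMARCB1 null and 5425 in wildtype. In the deeper and the shallower SMARCB1 null library, MYL4 had 86 and 1 recovered reads, TNNT2 had 43 and 0, and HAND2 had 373 and 265. Of the other cardiac markers with recovered reads, HAND1 had 73 and 28, GATA4 20 and 15, and MYL3 18 and 4. MYL7 had 0 and 1, and NPPB had 0 in both. Of 14 fibroblast and mesenchyme markers, 3 rose and 1 fell in the SMARCB1 null, 3 rose and none fell in SMARCA4 null cells, and 5 rose and none fell in the double null, per the authors' deposited table. Their medians were 1.66, 0.38 and 2.47, per the authors' deposited table, or 1.66, 0.50 and 2.46 with groups under 3 reads set at 3. Summed over the 14, the implied level was 42723 depth-corrected reads per library in the SMARCB1 null, 74948 in SMARCA4 null cells and 56056 in the double null, against 41887 in wildtype. Most of each sum was VIM (vimentin), at 34396, 48187 and 39749 in the null groups in that order, and 34682 in wildtype. In the SMARCB1 null, PDGFRA (a receptor of platelet-derived growth factors, log2 2.86, FDR 0.0346), TWIST1 (a mesenchymal transcription factor, log2 1.15, FDR 3.85e-05) and LUM (the matrix proteoglycan lumican, FDR 0.00718, at 20 and 3 recovered reads against none in wildtype) rose, and FN1 (fibronectin, log2 -2.38, FDR 2.4e-08) fell, per the authors' deposited table. PDGFRA stood at an implied level of 997 depth-corrected reads per library in the SMARCB1 null, against 138 in wildtype. It stood higher in SMARCA4 null cells, at 18252, and in the double null, at 6187. The part of fibroblast transcripts in the levels of the 10 genes was not tested. Of 13 TGF-beta ligands, receptors and SMADs, 3 rose and 4 fell in the SMARCB1 null, 1 rose and 3 fell in SMARCA4 null cells, and 3 rose and 4 fell in the double null, per the authors' deposited table, with medians of -0.17, 0.26 and -0.06. TGFBR2, the type II receptor, fell, with log2 ratios of -1.36 (FDR 0.000317), -1.16 (FDR 0.00218) and -1.88 (FDR 2.6e-06) in the SMARCB1 null, the SMARCA4 null and the double null, per the authors' deposited table. The implied levels of LTBP1 and TGFB3 stood above wildtype in every null. With only 1 of the 13 genes called higher in SMARCA4 null cells, LTBP1 and TGFB3 were not both called there. The implied level of LTBP1 was 2754, 440 and 4434 depth-corrected reads per library in these groups, against 141 in wildtype. That of TGFB3 was 1857, 1332 and 2355, against 463 in wildtype.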

How the data were processed

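RNA was measured in 8 libraries of HAP1 cells, 2 per group, from cells lysed in Trizol before confluence and prepared with a strand-specific mRNA kit, per the labels' protocols. The authors used STAR and Partek 4.0 with build hg19, per the submitters' processing notes. How the authors tested, normalized and annotated is not given in the sources used here. Per the file headers, 2 deposited tables hold the authors' comparisons of each null group with wildtype: total reads of a gene (an estimated count), a p-value, an FDR, a ratio and a signed fold, which is a score in sign. The authors' FDR equals the Benjamini-Hochberg adjustment of their p-value over all genes, and the full table was not tested again.

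Single-library reads were recovered from the ratios the authors deposited, whose low values are whole multiples of what 1 read is worth in a library. Of 3991 genes with a whole total (within 0.001) of up to 600 reads, 3568 gave a single whole-number solution at a relative tolerance of 3e-07, and 3 listed genes with larger totals were added at 1e-09. Of 200 decoys none was solved. Libraries are known only as the deeper and the shallower of a group. Recovered reads of 1624 genes entered edgeR 4.0.16 (robust quasi-likelihood test, 8 libraries in 1 fit, low-read genes filtered), in R 4.3.3 with limma 3.58.1. DESeq2 1.42.0 was an alternative. The procedure was tested on simulated data. Implied levels of recovered genes had a median error of 1.21% to 1.38% per group and a 95th percentile of 6.96% to 14.8%, the highest in the double null. CNN1 had 207 reads in all, which limits the precision of its values.

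All 10 genes are named. From each further list, the counts are given and at most 4 genes with the lowest FDR are named, besides SRF, MKL1, MKL2 and MYOCD. MYH11, LMOD1, MYL12A, PXN, LPXN, ACTA1, ACTC1, ELK1, ELK4, PCSK7 and the ACTA2 locus were named after their values were seen. So were the skeletal markers with recovered reads, MYL3, MYL4, MYL7, GATA4, NPPB, TNNT2, TWIST1 and LUM. A further list is not reported here. The genes and lists were chosen with earlier results of these data known. The lists overlap (ACTB, ACTG1, ACTA1, ACTC1 and SRF each stand in 2). Promoters are RefSeq's on GRCh38.p14, a build other than the authors'.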

Additional observations from a re-analysis of the deposited data

How the results depend on the processing

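With the Benjamini-Yekutieli adjustment of the authors' p-values in place of Benjamini-Hochberg, the genes called numbered 5 in the SMARCB1 null (1 higher, 4 lower), 1 in SMARCA4 null cells and 6 in the double null. TAGLN, CNN1 and TPM2 in the SMARCB1 null, ACTG2 and TAGLN in SMARCA4 null cells and CALD1 in the double null were lost. An FDR under 0.01 left 6, 2 and 6 calls, and at least 2-fold left 7, 3 and 5. Centring on the median of genes with at least 100 reads, which is 0.12 in the double null, turned CNN2 there to -0.049, not called. The shorter table's FDRs added ACTA2 in the SMARCA4 null. On recovered reads, CNN1 was not called in the SMARCB1 null with edgeR under any alternative run or with DESeq2, and without a filter its SMARCA4 null edgeR adjusted p was 0.0964. Leaving out each library moved CNN1's log2 change between 1.24 and 2.28, 2.09 and 3.29, and 3.53 and 4.18 in the SMARCB1 null, the SMARCA4 null and the double null, a lone library being assumed to vary like the other groups. The other 9 genes could not be refitted. No paired analysis was possible because the tables hold comparisons and libraries cannot be tied to numbers. Where an alternative ended a call, the cause was not tested.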
